A study of Mus musculus with 9 samples.

Results

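The integrated stress response and the unfolded protein response were followed through 35 named genes, each found by its gene name as 1 row among the 51826 rows of a table of raw read counts. Of these, 17 belong to the ATF4 arm, which holds the ATF4-type transcription factors, their targets and the enzymes that make serine, asparagine and proline, and 18 belong to the endoplasmic reticulum (ER) arm, which holds the ER chaperones and the factors of the unfolded protein response. All 35 passed the filter on low counts and were tested. RNA was sequenced from macrophages derived from mouse bone marrow (BMMs), which are cultured from precursors in the marrow. The design had 3 groups of 3 libraries each. Control was untreated BMMs. CM was BMMs after 48 h with conditioned medium of K7M2, a mouse osteosarcoma cell line, and CM plus DTM was BMMs after 48 h with the same medium and DTM. What DTM stands for, the mouse strain, and the time and medium of the control culture are not stated in the labels, and differences from control can include those of time and medium. Nor do the labels state whether a group's libraries came from different cultures or mice, and the p-values therefore reflect no more than the spread among these libraries, which may be technical.

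The integrated stress response begins with kinases that sense misfolded protein in the ER, lack of amino acids, lack of heme or double-stranded RNA, and that phosphorylate the translation factor eIF2. General translation then slows while the mRNA of the transcription factor ATF4 is translated more, and ATF4 raises genes for amino acid synthesis and uptake, for redox balance and, when stress lasts, for cell death. The unfolded protein response adds the sensors IRE1, which splices the Xbp1 mRNA, and ATF6, and it raises the chaperones and degradation factors of the ER, which macrophages rely on for the proteins they secrete. Read counts per gene measure the mRNA and show neither eIF2 phosphorylation nor the splicing of Xbp1.

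Depth ran from 43084296 to 50407973 counts per library. CM 1 and CM plus DTM 1 stood apart from the libraries of their own groups, so counts of called genes are given with all 9 libraries and without these 2, as are the genes whose call or value depended on them. Levels are CPM, read counts scaled to library size after normalisation by the trimmed mean of M values. The macrophage markers were present in every library. Cd68 was between 1410 and 2250 CPM, although Ptprc, which encodes the pan-leukocyte CD45, was at 3.79 CPM in CM plus DTM 1. Other macrophage markers differed more between groups, in both directions. Itgam stood at 318, 293 and 222 CPM in control, at 608, 1250 and 1090 CPM in CM and at 104, 347 and 86 CPM in CM plus DTM. Adgre1 stood at 1300, 876 and 782 CPM in control, at 453, 658 and 592 CPM in CM and at 1110, 686 and 612 CPM in CM plus DTM. The summed level of 10 neutrophil markers was 203 to 733 CPM in control and 356 to 1141 CPM in CM plus DTM. It was 261 and 287 CPM in CM 2 and 3, but 1.84 CPM in CM 1, where Ly6g, Elane, Camp, Ngp, Ltf and Retnlg were at 0. The 12 stromal and osteosarcoma cell markers summed to 857 to 1251 CPM in control, 166, 796 and 837 CPM in CM 1, 2 and 3, and 862 to 993 CPM in CM plus DTM, with Bglap at 0 in 5 libraries and Lum at 0 in 4. The 16 proliferation genes summed to 2574 to 2833 CPM in control, to 699, 1596 and 1703 CPM in CM 1, 2 and 3, and to 617, 2703 and 2605 CPM in CM plus DTM 1, 2 and 3. The 13 mitochondrial transcripts summed to 6837 to 11383 CPM in control, to 17328, 11937 and 12961 CPM in CM 1, 2 and 3, and to 20043, 11320 and 13915 CPM in CM plus DTM 1, 2 and 3. The part of these differences in the results below was not tested. In bulk RNA, fewer cells of a type and less RNA per cell cannot be told apart.

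**Figure D1:**
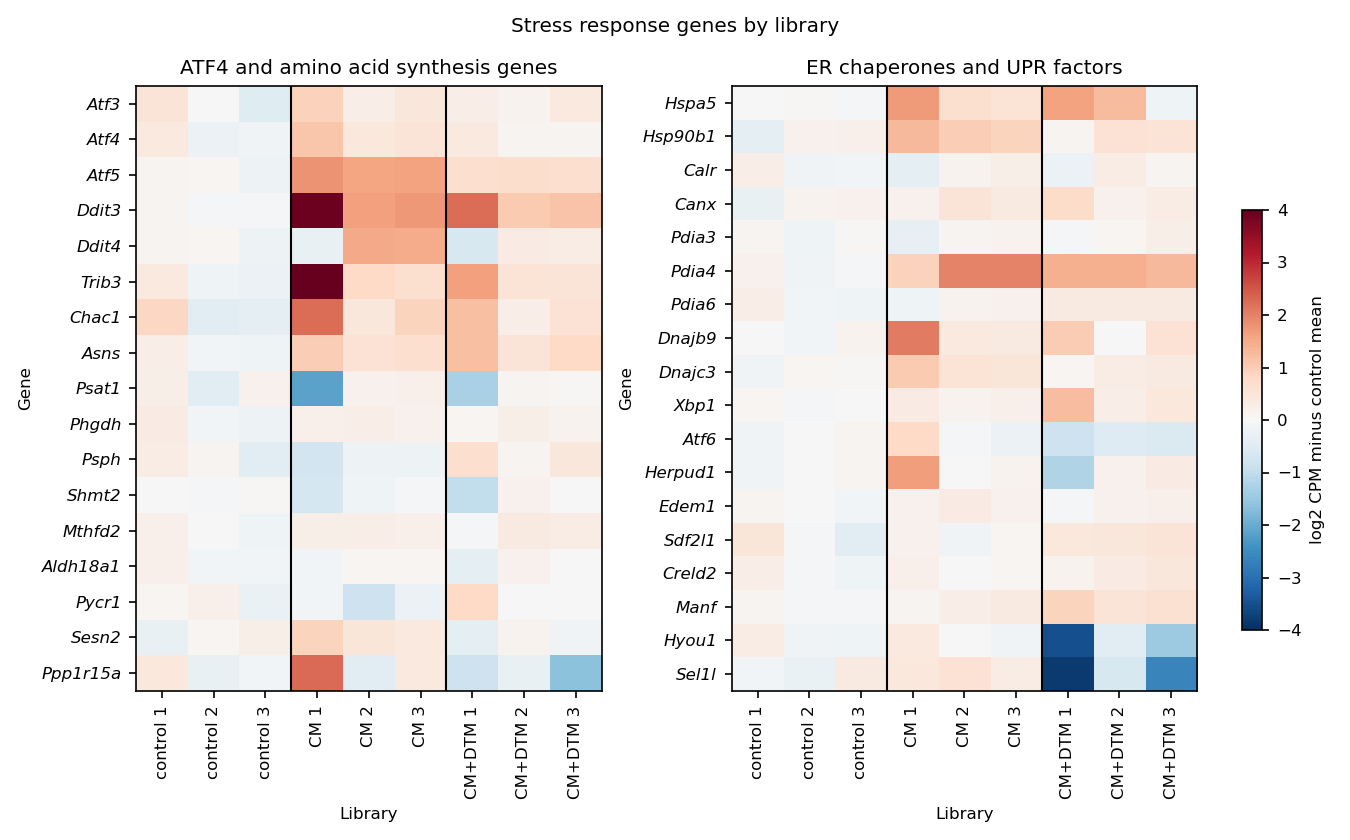
Level of each of the 35 genes in each of the 9 libraries, as log2 CPM (prior count 2) minus the mean of the 3 control libraries, with red for higher and blue for lower; genes are rows, libraries are columns and black lines part the groups. CM 1 holds the highest level of 15 of the 35 genes, where it is the highest library for 22.9% of all genes tested. CM plus DTM 1 holds the lowest of 8, where it is the lowest library for 27% of all genes tested.

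In CM against control, 4 of the 35 genes rose and 0 fell. The risers were Atf5 and Ddit3 in the ATF4 arm and Hsp90b1 and Pdia4 in the ER arm (edgeR quasi-likelihood test, Benjamini-Hochberg adjustment over all 15429 genes tested, threshold 0.05). Of all genes tested, 4.04% rose and 1.57% fell. The median log2 fold change was 0.58 in the ATF4 arm and 0.24 in the ER arm, against -0.01 over all genes tested. Of the 35, 14 were higher in every CM library than in every control library, where 18.3% of all genes tested were, and 0 were lower in every CM library, where 18.4% of all genes were. Those 14 were Atf4, Atf5, Ddit3, Trib3, Asns, Mthfd2 and Sesn2 in the ATF4 arm, and Hspa5, Hsp90b1, Pdia4, Dnajb9, Dnajc3, Xbp1 and Edem1 in the ER arm. CM 1 was the highest library of all 9 for 8 genes of the ATF4 arm and 7 of the ER arm, where it was the highest for 22.9% of all genes tested. Without CM 1 and CM plus DTM 1, 7 members rose and 0 fell, where 9.62% of all genes rose and 6.41% fell. The median of the ATF4 arm was then 0.34 and that of the ER arm 0.25.

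The median of the ATF4 arm was moved most by CM 1, without which it was 0.31, and by control 1, without which it was 0.80. Scaling by total counts moved the median of all genes to -0.21, that of the ATF4 arm to 0.38 and that of the ER arm to 0.05, so relative to all genes the arms kept their distance. It also turned the split over all genes from 623 up and 242 down to 415 up and 464 down.

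Among the regulators of the ATF4 arm, Atf5 gave the clearest change. Atf5 encodes a bZIP factor whose mRNA, like that of Atf4, is translated more when eIF2 is phosphorylated. It stood at 57.7, 56.7 and 46.4 CPM in control 1, 2 and 3, at 187, 161 and 164 CPM in CM 1, 2 and 3, and at 84.4, 87.4 and 84.4 CPM in CM plus DTM 1, 2 and 3. The 3 groups did not overlap, with control lowest, CM highest and CM plus DTM between them. In CM against control the fold was 3.18 (log2 fold change 1.67, SE 0.15, adjusted p = 0.000894). The call held in each of the 19 alternatives. It did not rest on CM 1, since the log2 fold change without CM 1 and CM plus DTM 1 was 1.63 (SE 0.13, adjusted p = 0.000167). Atf5 shares 82 exonic bases, 4.11% of its own, with Nup62 and Il4i1 on the opposite strand in GENCODE vM21.

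Atf4 itself, the central factor of the response, stood at 246, 161 and 170 CPM in control, at 406, 255 and 269 CPM in CM and at 248, 205 and 203 CPM in CM plus DTM. Every CM library lay above every control library, with CM 1 far above the rest, and above every CM plus DTM library. The log2 fold change of 0.69 (SE 0.23, adjusted p = 0.129) did not pass the test, nor did that of 0.48 (SE 0.18, adjusted p = 0.113) without CM 1 and CM plus DTM 1. Atf3, a stress-induced bZIP factor, averaged 159 ± 54.1 CPM in control, 227 ± 54.6 CPM in CM and 184 ± 16.7 CPM in CM plus DTM (SD, n = 3), and its groups overlapped.

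Ddit3 encodes CHOP, the bZIP factor of prolonged ER stress that favours cell death. It stood at 14.5, 12.7 and 12.7 CPM in control, at 203, 41.1 and 44.2 CPM in CM and at 62, 27.5 and 29 CPM in CM plus DTM. Control libraries lay closely together and below every other library, while CM 1 and CM plus DTM 1 lay far above the other libraries of their groups. Ddit3 rose 7.24-fold in CM against control (log2 fold change 2.86, SE 0.63, adjusted p = 0.0336). Without CM 1 alone the log2 fold change was 1.68 (adjusted p = 0.0278), and without CM 1 and CM plus DTM 1 it was 1.72 (SE 0.12, adjusted p = 0.000124). The call was lost without control 1, 2 or 3 (adjusted p = 0.132, 0.137 and 0.121) and without CM plus DTM 3 (adjusted p = 0.0534), with the log2 fold change between 2.80 and 2.92, and with limma-voom (2.44, adjusted p = 0.0611). Ddit3 shares 68 exonic bases, 3.97% of its own, with Mars on the opposite strand, and the strand setting of the counting is not given in the sources used here.

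Trib3, a pseudokinase induced by ATF4 and CHOP that dampens both, was the most uneven gene of the arm. It stood at 7.7, 5.18 and 4.97 CPM in control, at 104, 10.3 and 9.11 CPM in CM and at 18.4, 8.64 and 8.27 CPM in CM plus DTM. Both treated groups lay above control in every library, but CM 1 lay far above CM 2 and 3. The log2 fold change in CM against control was 2.79 (SE 0.89, adjusted p = 0.109) with all libraries and 0.71 (adjusted p = 0.37) without CM 1. Chac1, an enzyme that breaks down glutathione, showed the same high CM 1 at a low level. It stood at 3.24, 1.31 and 1.38 CPM in control, at 8.61, 2.5 and 3.41 CPM in CM and at 4.19, 2.2 and 2.71 CPM in CM plus DTM, and its groups overlapped.

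Ddit4 encodes REDD1, an inhibitor of the growth kinase mTORC1. It stood at 9.78, 9.61 and 7.96 CPM in control, at 7.35, 26 and 25.2 CPM in CM and at 5.87, 11.5 and 11.2 CPM in CM plus DTM. CM 2 and 3 were the highest libraries, whereas CM 1 lay below all 3 control libraries, the opposite of its place for Ddit3 and Trib3. The log2 fold change was 1.10 (SE 0.45, adjusted p = 0.202) over all libraries. Without CM 1 alone Ddit4 rose by a log2 fold change of 1.49 (adjusted p = 0.0264), and without CM 1 and CM plus DTM 1 by 1.52 (SE 0.15, adjusted p = 0.000525).

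Sesn2, another brake on mTORC1, stood at 22.5, 29.8 and 32.5 CPM in control, at 51.6, 38.7 and 36.9 CPM in CM and at 21.6, 30.8 and 25.5 CPM in CM plus DTM. CM lay above both other groups in every library, and the log2 fold change of 0.58 against control (adjusted p = 0.165) did not pass. Ppp1r15a encodes GADD34, the phosphatase subunit that removes the phosphate from eIF2 and so ends the response. It stood at 30.5, 18.3 and 21.1 CPM in control, at 109, 17.1 and 29.8 CPM in CM and at 12.9, 18.6 and 7.28 CPM in CM plus DTM. The high mean of CM came from CM 1, and CM 2 lay below every control library. Its log2 fold change in CM against control was 1.15 (adjusted p = 0.328) with CM 1 and 0.01 (adjusted p = 0.993) without it.

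**Figure D2:**
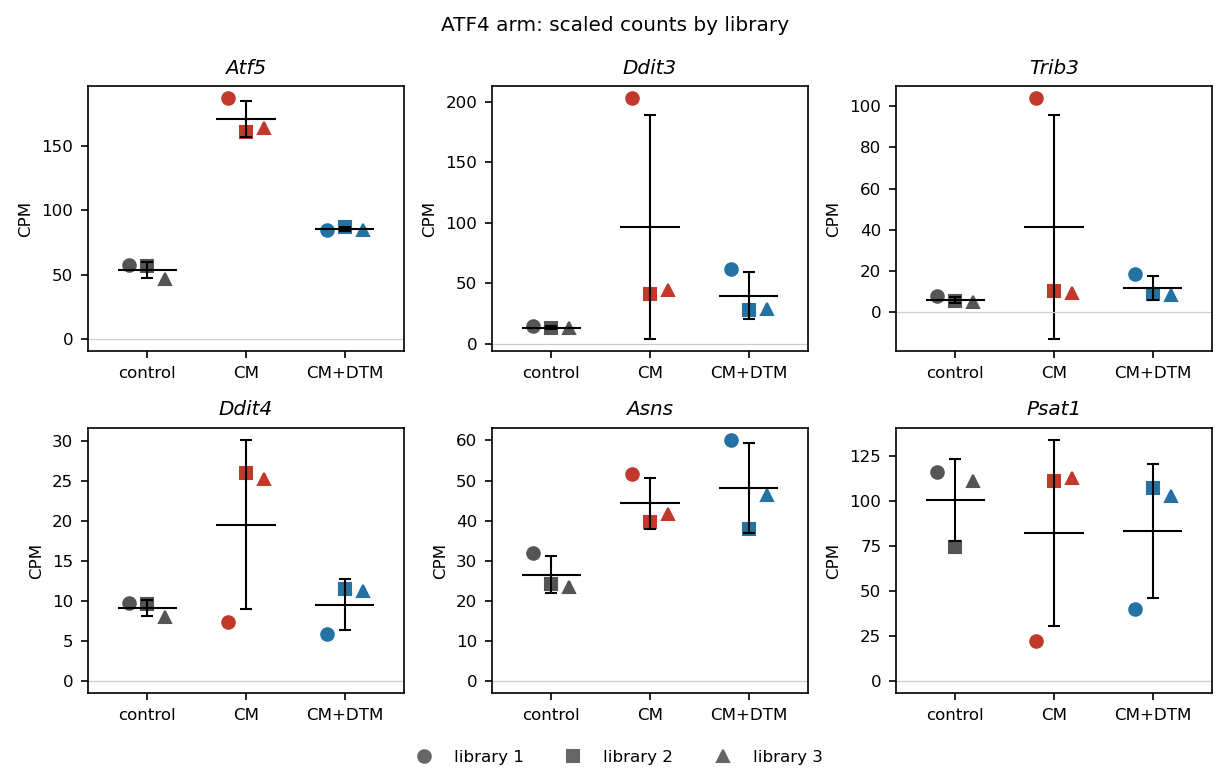
Levels in CPM of selected genes of the ATF4 arm on linear axes that include 0, with 1 point per library (control grey, CM red, CM plus DTM blue, shapes for library 1, 2 and 3) and bars for mean ± SD of n = 3. Atf5 forms 3 tight groups, whereas Ddit3 and Trib3 have CM 1 far above CM 2 and 3, and Ddit4 and Psat1 have it far below.

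ATF4 and its partners bind the C/EBP-ATF response element (CARE). The letters TGATGNAA, on either strand, were sought in promoters of RefSeq GRCm38.p6, each reaching from 250 bases before to 50 after an annotated gene start. The table held promoters for 32 of the 35 genes, with all 17 of the ATF4 arm among them and without Atf6, Hyou1 and Manf. The element was found in 5 of the 17 ATF4 arm genes (29.4%), in 1 of 15 ER arm genes (6.67%, Herpud1) and in 4.51% of all 27025 genes with a promoter. The 6 matches are shown to give the genes that held the element. The promoter windows of Atf5 and Ddit3 held none of the 4 motifs sought, nor did those of the uncalled Atf4, Ddit4, Psat1 and Phgdh. Bases outside the window were not searched. Each is printed 5′ to 3′ in the direction of the element, with the element in capitals.
Asns, chr6:7693217-7693240, minus strand: cagccacaTGATGAAActtcccgc
Atf3, chr1:191183428-191183451, plus strand: ggacttggTGATGCAAgtgcgaga
Chac1, chr2:119351041-119351064, minus strand: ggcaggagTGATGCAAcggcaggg
Pycr1, chr11:120643836-120643859, minus strand: cctgtgtaTGATGCAAtgcacaag
Trib3, chr2:152344031-152344054, plus strand: cgcccggcTGATGTAAacctgagc
Herpud1, chr8:94386309-94386332, minus strand: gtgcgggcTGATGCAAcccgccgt
A match is a run of letters and was not shown here to be bound. Of the 5 ATF4 arm genes with the element, 0 were called in CM against control, and of the 12 without it, 2 were. With 4.04% of all genes tested called up and 1.57% called down, groups this small cannot be told apart by such counts.

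The 250 bases before the start of Asns, at chr6:7693210-7693459 on the minus strand of GRCm38.p6, show the element close to the start of a gene that was lower in every control library than in every treated library, with the element in capitals.
Asns promoter: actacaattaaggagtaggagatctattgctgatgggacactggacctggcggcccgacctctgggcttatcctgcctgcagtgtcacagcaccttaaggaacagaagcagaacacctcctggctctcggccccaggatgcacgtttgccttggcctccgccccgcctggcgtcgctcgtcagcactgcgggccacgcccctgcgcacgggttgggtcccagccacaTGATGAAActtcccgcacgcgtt
The element began 23 bases before the annotated start.

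The enzymes of amino acid synthesis, which ATF4 raises when amino acids run short, did not pass the test in any of the 3 comparisons. Asns, asparagine synthetase and a classic ATF4 target, came nearest. It stood at 31.9, 24.3 and 23.5 CPM in control, at 51.6, 39.7 and 41.8 CPM in CM and at 60.1, 38 and 46.3 CPM in CM plus DTM. Every library of both treated groups lay above every control library, and the treated groups overlapped. Its log2 fold change was 0.74 (SE 0.22, adjusted p = 0.088) in CM against control and 0.86 (SE 0.22, adjusted p = 0.0758) in CM plus DTM against control. In CM against control it passed in 5 of the 19 alternatives. These were the fits without CM plus DTM 1 (0.77, adjusted p = 0.0273) and without CM 1 and CM plus DTM 1 together (0.65, adjusted p = 0.0339), DESeq2 (adjusted p = 0.0291), the compared groups only (adjusted p = 0.0424) and a replicate block (adjusted p = 0.0459). In CM plus DTM against control it passed in 2, with DESeq2 (adjusted p = 0.00942) and without CM plus DTM 2 (adjusted p = 0.0299).

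The 3 enzymes that build serine from a glycolytic intermediate went different ways. Phgdh, the entry enzyme, was nearly level, with means of 24.5 ± 4.98, 28.1 ± 1.21 and 26.8 ± 1.33 CPM in control, CM and CM plus DTM (SD, n = 3). Psat1, the aminotransferase of the next step, stood at 116, 74.4 and 111 CPM in control, at 22.5, 111 and 113 CPM in CM and at 40.4, 107 and 103 CPM in CM plus DTM. Only CM 1 and CM plus DTM 1 were low, and the other 7 libraries lay between 74.4 and 116 CPM.

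Psph, the phosphatase of the last step, stood at 20, 17.5 and 12.2 CPM in control, at 9.46, 14.1 and 14.1 CPM in CM and at 25.9, 17.6 and 22.4 CPM in CM plus DTM. CM plus DTM lay above CM in every library, and both overlapped control. Psph shares 10.4% of its exonic bases with Cct6a on the opposite strand. Shmt2, which passes a carbon unit from serine to folate in mitochondria, stood at 59.1, 86 and 93.2 CPM in CM and at 49.3, 108 and 96.4 CPM in CM plus DTM. It was low in CM 1 and CM plus DTM 1, the libraries in which Psat1 and the proliferation genes were low too, and whose part in these levels was not tested.

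Mthfd2, the next enzyme of mitochondrial folate metabolism, was between 69.3 and 99.3 CPM in all 9 libraries and higher in every CM library than in every control library, by a log2 fold change of 0.23 (adjusted p = 0.448). Aldh18a1, which starts proline synthesis, was between 31.1 and 47.5 CPM. Pycr1, which ends it, was between 1.03 and 3.27 CPM. Neither separated CM from control.

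The ER chaperones and the factors of the unfolded protein response showed a mixed picture in CM, in which Pdia4 and Hsp90b1 rose and the most abundant chaperones hardly moved. Pdia4, a protein disulfide isomerase (PDI) that forms and reshuffles disulfide bonds in the ER, stood at 294, 239 and 252 CPM in control, at 492, 1030 and 1030 CPM in CM and at 697, 704 and 645 CPM in CM plus DTM. Control was lowest in every library, and CM 1 lay below CM 2 and 3 and below all CM plus DTM libraries. Pdia4 rose 3.25-fold in CM against control (log2 fold change 1.70, SE 0.27, adjusted p = 0.00903). Without CM 1 and CM plus DTM 1 the log2 fold change was 2.01 (SE 0.12, adjusted p = 5.36e-05), and without control 2 it was 1.61 and missed the threshold (adjusted p = 0.0565).

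Among the members, Pdia3 and Pdia6 did not follow it. Pdia3, the isomerase that works on glycoproteins with calreticulin and calnexin, had means of 970 ± 91.6, 961 ± 159 and 1030 ± 98.2 CPM in control, CM and CM plus DTM. Pdia6 had means of 476 ± 82.4, 491 ± 62.7 and 605 ± 3.26 CPM (SD, n = 3). The log2 fold changes in CM against control were -0.01 for Pdia3 (SE 0.18, adjusted p = 0.975) and 0.04 for Pdia6 (SE 0.17, adjusted p = 0.92).

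Hsp90b1 encodes GRP94, the HSP90 of the ER, which folds Toll-like receptors and integrins. It stood at 212, 313 and 319 CPM in control, at 686, 548 and 513 CPM in CM and at 297, 411 and 408 CPM in CM plus DTM. CM lay above both other groups in every library, and CM plus DTM overlapped control. Hsp90b1 rose 2.07-fold in CM against control (log2 fold change 1.05, SE 0.22, adjusted p = 0.0266). The call was lost without control 1, 2 or 3 (adjusted p = 0.101, 0.0924 and 0.0695), without CM 1, 2 or 3 (adjusted p = 0.0612, 0.075 and 0.0591) and under total count scaling (adjusted p = 0.1). Without CM 1 and CM plus DTM 1 together the log2 fold change was 0.95 (SE 0.18, adjusted p = 0.0109). On the opposite strand 1810014B01Rik overlaps 415 of its 4032 exonic bases.

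Hspa5 encodes BiP, the HSP70 of the ER that also keeps the stress sensors silent. It stood at 405, 410 and 384 CPM in control, at 1310, 626 and 583 CPM in CM and at 1230, 950 and 356 CPM in CM plus DTM. Every CM library lay above control, while CM plus DTM spread from below control to nearly the level of CM 1. The log2 fold change of 1.07 in CM against control (SE 0.44, adjusted p = 0.205) was 0.60 without CM 1 (adjusted p = 0.502).

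Calr, the lectin chaperone calreticulin, had means of 1990 ± 308, 2010 ± 419 and 2100 ± 382 CPM in control, CM and CM plus DTM, with overlapping groups. Canx, its membrane-bound partner calnexin, stood at 326, 441 and 450 CPM in control, at 449, 573 and 512 CPM in CM and at 667, 452 and 496 CPM in CM plus DTM. The CM libraries overlapped control narrowly and the CM plus DTM libraries lay just above it. Sdf2l1, which supports BiP, and Creld2, an ER protein with disulfide isomerase motifs, had log2 fold changes of 0.00 and 0.08 in CM against control.

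**Figure D3:**
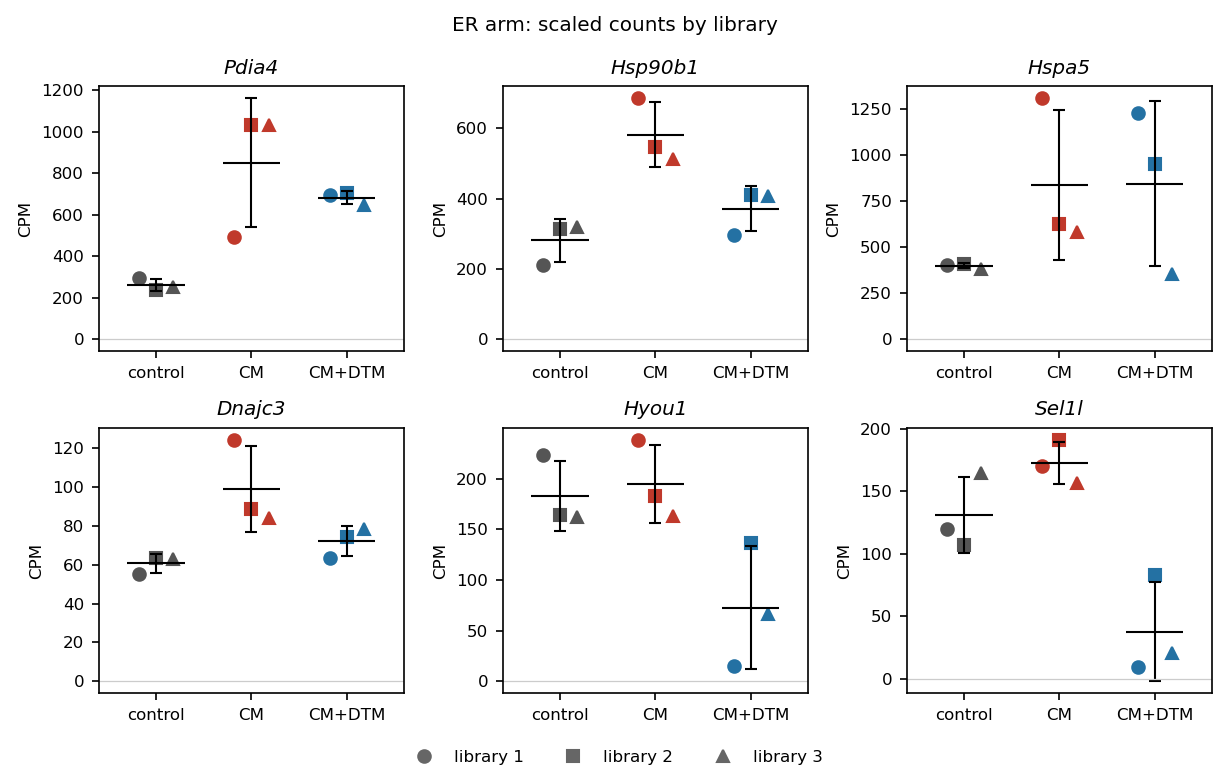
Levels in CPM of selected genes of the ER arm on linear axes that include 0, with 1 point per library (control grey, CM red, CM plus DTM blue, shapes for library 1, 2 and 3) and bars for mean ± SD of n = 3. Pdia4 is lowest in control in every library, Hsp90b1 is highest in CM, and Hyou1 and Sel1l are lowest in CM plus DTM with CM plus DTM 1 at the bottom.

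The ER stress response element (ERSE), which ATF6 binds together with NF-Y, reads CCAAT, then 9 bases of any kind, then CCACG. It was found on either strand in 7 of the 15 ER arm genes with a promoter (46.7%) and in 0 of the 17 ATF4 arm genes, where it was found in 37 of all 27025 genes (0.137%). The other motifs sought, the unfolded protein response element TGACGTGG and the cyclic AMP response element TGACGTCA, were in 0 members and in 1 member (Ppp1r15a), and in 0.676% and 1.79% of all promoters. The 8 ERSE matches are shown because they lie in 7 genes of the ER arm and in 0 of the ATF4 arm. Pdia3, Pdia4, Dnajb9 and Sdf2l1 were among the ER arm genes without the element. Each is printed 5′ to 3′ in the direction of the element, with its outer parts in capitals.
Hspa5, chr2:34772025-34772043, plus strand: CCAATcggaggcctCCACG
Hsp90b1 far site, chr10:86705638-86705656, minus strand: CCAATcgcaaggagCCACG
Hsp90b1 near site, chr10:86705533-86705551, plus strand: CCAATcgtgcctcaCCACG
Calr, chr8:84847075-84847093, plus strand: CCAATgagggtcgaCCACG
Canx, chr11:50325800-50325818, minus strand: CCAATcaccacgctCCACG
Pdia6, chr12:17266491-17266509, plus strand: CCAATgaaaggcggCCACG
Dnajc3, chr14:118937827-118937845, plus strand: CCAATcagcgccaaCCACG
Creld2, chr15:88819520-88819538, minus strand: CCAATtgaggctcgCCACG
Of the 7 genes with the element, 1 rose in CM against control (Hsp90b1), and of the 8 without it, 1 rose (Pdia4). Of all genes tested, 4.04% rose, and these counts are too small to tell genes with the element from those without it. The risers Atf5, Ddit3 and Pdia4 thus had neither element in this window, which says only that these letters are not there.

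The 250 bases before the starts of Hspa5 and Hsp90b1 show the element in its setting, at chr2:34771840-34772089 on the plus strand and at chr10:86705445-86705694 on the minus strand of GRCm38.p6. Both run 5′ to 3′ towards the gene, with the outer parts of each match in capitals, which read CGTGG and ATTGG where the element lies on the other strand.
Hspa5 promoter: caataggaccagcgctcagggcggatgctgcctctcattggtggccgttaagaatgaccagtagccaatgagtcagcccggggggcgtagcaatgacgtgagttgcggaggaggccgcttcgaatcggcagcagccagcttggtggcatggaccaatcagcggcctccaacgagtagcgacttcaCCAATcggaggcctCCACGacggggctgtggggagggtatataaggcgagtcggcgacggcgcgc
Hsp90b1 promoter: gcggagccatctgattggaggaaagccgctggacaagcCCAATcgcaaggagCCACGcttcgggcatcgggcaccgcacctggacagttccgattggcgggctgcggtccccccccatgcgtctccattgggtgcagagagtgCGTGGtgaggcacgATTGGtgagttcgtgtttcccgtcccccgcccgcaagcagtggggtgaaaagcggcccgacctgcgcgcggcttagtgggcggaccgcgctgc

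**Figure D4:**
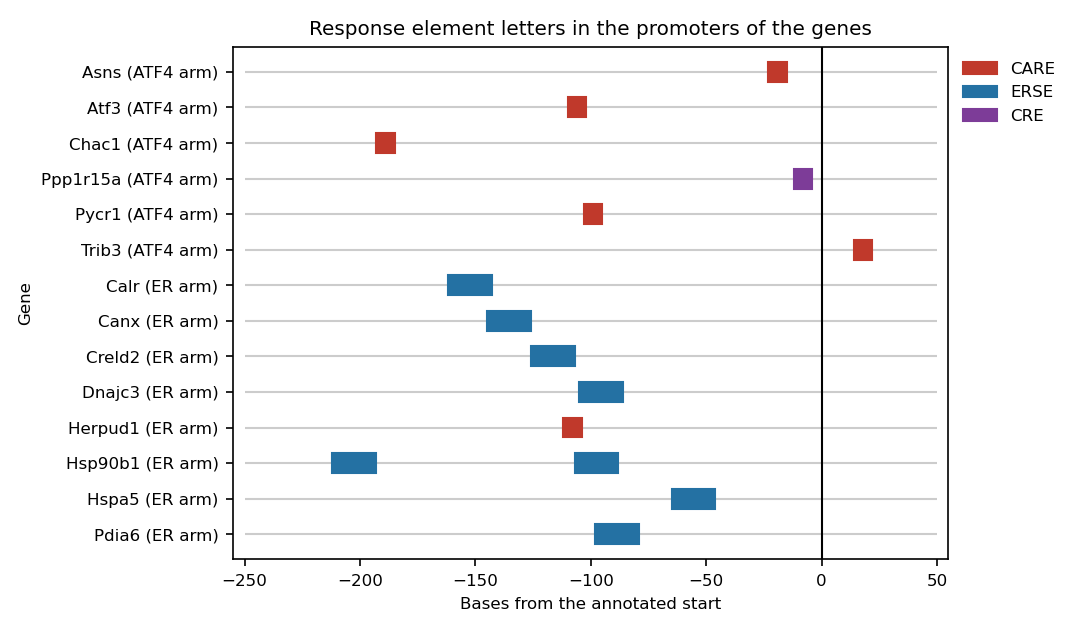
Place of the matched elements in the promoters of the members that hold any, in bases from the annotated gene start (0), with 1 grey line per promoter and 1 coloured box per match. Matches of the ER stress response element lie in ER arm genes and not in ATF4 arm genes, and 5 of the 6 matches of the C/EBP-ATF response element lie in ATF4 arm genes.

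Among the co-chaperones and factors of the unfolded protein response, Dnajc3 came nearest to the threshold in CM. Dnajc3 encodes P58IPK, a co-chaperone of BiP. It stood at 55.2, 63.4 and 63.1 CPM in control, at 124, 88.8 and 83.7 CPM in CM and at 63.6, 74.2 and 78.3 CPM in CM plus DTM. The groups did not overlap, with CM highest and control lowest. Its log2 fold change in CM against control was 0.71 (SE 0.19, adjusted p = 0.0595), and it passed without CM 1 and CM plus DTM 1 (0.54, SE 0.12, adjusted p = 0.0187).

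Dnajb9, a BiP co-chaperone that represses IRE1, stood at 26.8, 25.7 and 30 CPM in control, at 117, 36.3 and 35 CPM in CM and at 55.3, 27.6 and 40.9 CPM in CM plus DTM. CM lay above control in every library, mostly through CM 1, without which the log2 fold change of 1.19 (adjusted p = 0.176) was 0.38 (adjusted p = 0.511). Xbp1, the factor that IRE1 activates by splicing, stood at 216, 192 and 203 CPM in control, at 254, 225 and 235 CPM in CM and at 476, 247 and 269 CPM in CM plus DTM. All treated libraries lay above control, with CM plus DTM 1 far above the others. Atf6, the sensor that is cut in the Golgi, stood at 82.7, 91 and 98.5 CPM in control, at 158, 88 and 77.2 CPM in CM and at 51.2, 62.6 and 60.5 CPM in CM plus DTM. CM overlapped control, and CM plus DTM lay below every other library.

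The genes of ER-associated degradation showed no common course in CM. Herpud1, a membrane protein of the degradation complex, stood at 35.3, 40.2 and 42.9 CPM in control, at 126, 39.4 and 43.3 CPM in CM and at 17.2, 43.9 and 49.1 CPM in CM plus DTM. Apart from CM 1, which was high, and CM plus DTM 1, which was low, its libraries stayed near the control level. Edem1, a lectin that sends misfolded glycoproteins to degradation, was between 250 and 340 CPM in all 9 libraries. It was higher in every CM library than in every control library, by a log2 fold change of 0.22 (adjusted p = 0.4).

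Sel1l, the scaffold of the HRD1 ubiquitin ligase, stood at 120, 107 and 165 CPM in control, at 170, 191 and 157 CPM in CM and at 8.95, 82.6 and 20.7 CPM in CM plus DTM. Hyou1, an HSP110-type chaperone that exchanges nucleotide on BiP, stood at 223, 164 and 162 CPM in control, at 238, 183 and 163 CPM in CM and at 15.6, 136 and 66.4 CPM in CM plus DTM. For both genes every CM plus DTM library lay below every control and CM library, CM plus DTM 1 was lowest and CM plus DTM 2 was nearest to the other groups. Manf, a secreted factor of the ER that is induced by ER stress, stood at 176, 158 and 154 CPM in control, at 176, 193 and 208 CPM in CM and at 302, 229 and 247 CPM in CM plus DTM, which was the highest group in every library.

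The effect of DTM within conditioned medium was read from CM plus DTM against CM. The CM libraries are shared with CM against control, so a high CM library raises the fold change there and lowers it here. None of the 35 genes passed the edgeR quasi-likelihood test, as did 0 of all 15429 genes tested (0% up and 0% down), although 4372 of them had an unadjusted p under 0.05. Of the members, 11 had an unadjusted p under 0.05, 2 of them higher and 9 lower in CM plus DTM. Of the 4372 among all genes, 2211 were higher and 2161 lower. DESeq2 called 2827 genes and 7 members. The median log2 fold change was -0.31 in the ATF4 arm and -0.05 in the ER arm, against -0.03 over all genes tested. Without CM 1 that of the ATF4 arm was -0.10, and without CM plus DTM 1 that of the ER arm was -0.27.

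Of the 35, 8 were lower in every CM plus DTM library than in every CM library, where 17.8% of all genes tested were, and 5 were higher in every library, where 16.7% were. The 8 were Atf4, Atf5 and Sesn2 in the ATF4 arm and Hsp90b1, Dnajc3, Atf6, Hyou1 and Sel1l in the ER arm. The 5 were Psph, Pycr1, Pdia6, Sdf2l1 and Manf. Atf5 had the smallest error, with a log2 fold change of -1.0 (SE 0.14, adjusted p = 0.0611), and it passed without CM plus DTM 2 (-1.0, adjusted p = 0.0245). Sel1l was at -2.21 (SE 0.66, adjusted p = 0.0783), and at -1.80 (adjusted p = 0.0843) without CM 1 and CM plus DTM 1. Ppp1r15a was at -2.0 (adjusted p = 0.09), but at -0.86 (adjusted p = 0.245) without CM 1 and at -0.91 (adjusted p = 0.231) without CM 1 and CM plus DTM 1. Trib3 was at -1.80 (adjusted p = 0.201), and without CM 1 it was at 0.27 (adjusted p = 0.694). Without CM plus DTM 2, Sel1l passed at -3.53 (adjusted p = 0.0162) and Hyou1 passed at -2.24 (adjusted p = 0.0384), where Hyou1 was at -1.42 (SE 0.59, adjusted p = 0.152) with all libraries and at -0.83 (adjusted p = 0.135) without CM 1 and CM plus DTM 1. Atf6 was at -0.89 (adjusted p = 0.0737) with all libraries and at -0.48 (adjusted p = 0.0794) without those 2.

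Without CM 1 and CM plus DTM 1, 4 members fell and 0 rose in CM plus DTM against CM, where 1.8% of all genes rose and 3.17% fell. These were Atf5 (log2 fold change -0.97, adjusted p = 0.0222), Ddit3 (-0.65, adjusted p = 0.0428), Ddit4 (-1.23, adjusted p = 0.0186) and Pdia4 (-0.66, adjusted p = 0.0412). With all libraries the log2 fold changes of Ddit3, Ddit4 and Pdia4 were -1.29, -1.03 and -0.32 (adjusted p = 0.194, 0.171 and 0.454). Without CM 1 alone Ddit3 was at -0.12 (adjusted p = 0.856), and without CM 2 or CM 3 alone Pdia4 was at -0.16 and -0.15 (adjusted p = 0.775 and 0.785). These 4 were named because that fit called them lower, so their place below CM 2 and 3 in CM plus DTM 2 and 3 follows from the choice. There all 4 also lay above the control libraries, and the share of all genes that did so was not counted. The libraries left out differed. Ddit4 was at 7.35 CPM in CM 1 and at 5.87 CPM in CM plus DTM 1, below every control library. Pdia4 was at 492 CPM in CM 1, below every CM plus DTM library.

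Against control, Atf5 and Pdia4 rose in CM plus DTM and 0 members fell, where 1.5% of all genes tested rose and 0.946% fell. Atf5 rose 1.59-fold (log2 fold change 0.67, SE 0.14, adjusted p = 0.0478) and Pdia4 rose 2.61-fold (log2 fold change 1.38, SE 0.27, adjusted p = 0.0348). Both calls lay close to the threshold. They were lost without control 1, 2 or 3 (adjusted p = 0.12, 0.186 and 0.184 for Atf5 and 0.112, 0.154 and 0.15 for Pdia4) and without CM 2 or 3 (0.0884 and 0.0865, and 0.056 and 0.0556). They were also lost without CM plus DTM 1 or 3 (0.061 and 0.117 for Atf5, and 0.0608 and 0.0913 for Pdia4). That of Atf5 was lost, too, under total count scaling (0.43, adjusted p = 0.158), without a count filter (adjusted p = 0.0997) and with the compared groups only (adjusted p = 0.0911). The control libraries are shared with CM against control.

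The median log2 fold change was 0.21 in the ATF4 arm, which was -0.02 under total count scaling, and 0.33 in the ER arm, which was 0.10 under that scaling, against 0.01 over all genes tested, which it moved to -0.24. That of the ATF4 arm was 0.33 without control 1 and 0.10 without control 3. That scaling also turned the split over all genes from 232 up and 146 down to 176 up and 273 down. Of the 35, 10 were higher in every CM plus DTM library than in every control library, where 16.7% of all genes tested were, and 3 were lower, where 17.8% were. The 10 were Atf5, Ddit3, Trib3, Asns, Canx, Pdia4, Pdia6, Dnajc3, Xbp1 and Manf, and the 3 were Atf6, Hyou1 and Sel1l. With all libraries Sel1l was at -1.8 (adjusted p = 0.143) and Hyou1 at -1.33 (adjusted p = 0.203). Without CM plus DTM 2 both passed as lower, Sel1l at -3.12 (adjusted p = 0.0102) and Hyou1 at -2.14 (adjusted p = 0.0438). Sel1l also passed with DESeq2 (-1.81, adjusted p = 0.0356).

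Without CM 1 and CM plus DTM 1, 4 members rose and 1 fell against control, where 4.07% of all genes rose and 4.32% fell. The risers were Atf5 (log2 fold change 0.66, adjusted p = 0.0216), Ddit3 (1.07, adjusted p = 0.00328), Pdia4 (1.35, adjusted p = 0.00103) and Manf (0.53, adjusted p = 0.0278). The gene that fell was Atf6 (-0.58, adjusted p = 0.0348). With all libraries Ddit3 was at 1.57 (SE 0.61, adjusted p = 0.162), Manf was at 0.67 (SE 0.15, adjusted p = 0.0567) and Atf6 was at -0.64 (SE 0.26, adjusted p = 0.173).

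**Figure D5:**
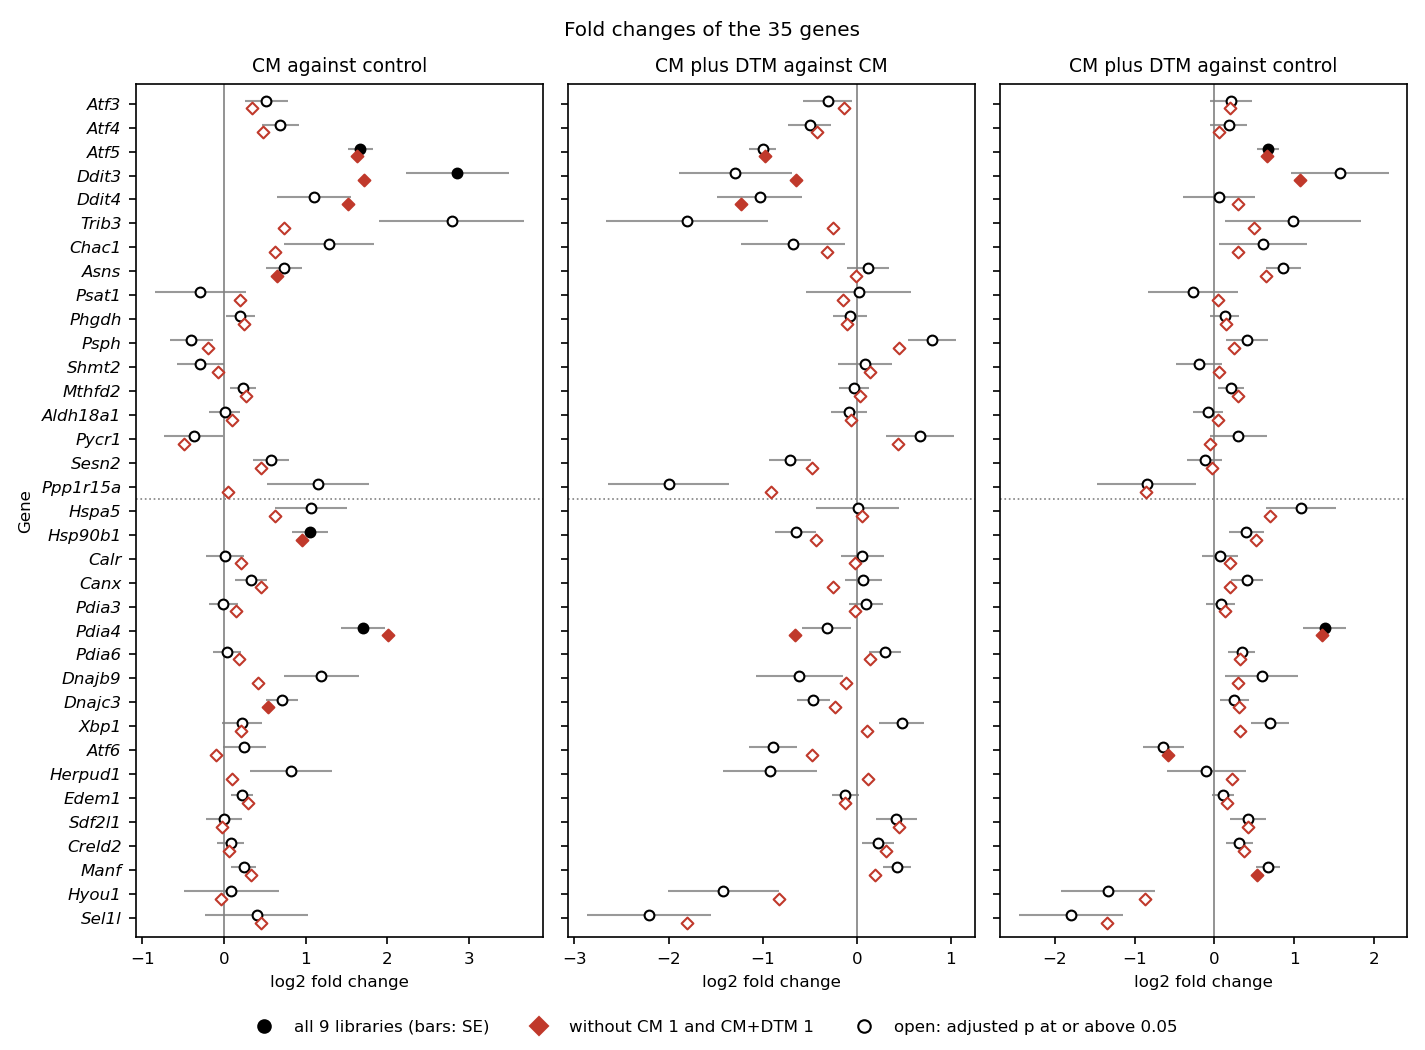
Log2 fold change of each of the 35 genes in the 3 comparisons, as black circles with SE bars from the edgeR fit over all 9 libraries and as red diamonds from the fit without CM 1 and CM plus DTM 1, filled where the gene passed the test and open where it did not. Filled circles are Atf5, Ddit3, Hsp90b1 and Pdia4 for CM to control, and Atf5 and Pdia4 for CM plus DTM to control.

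Per length, as CPM per kilobase of the longest GENCODE vM21 transcript, the most abundant genes were those of the ER arm, though the arms overlapped. In control the mean level ran from 11.2 for Dnajb9 to 912 for Calr in the ER arm, and from 0.647 for Pycr1 to 95.3 for Atf4 in the ATF4 arm. Hspa5 and Pdia4 shared a control level of 109 CPM per kilobase. In CM they reached 229 and 354, at which Pdia4 stood beside Pdia3 (347) and below Calr (920). In CM, Ddit3 (99.3) and Atf5 (93.7) lay beside each other, although Ddit3 owed its mean to CM 1 and Atf5 did not.

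Other genes around both arms were read from 5 lists. Genes named here from the fit without CM 1 and CM plus DTM 1 alone lie outside the naming rule and were named after their values were seen. Of 20 stress sensor and eIF2 genes tested, 4 rose and 0 fell in CM against control, where 4.04% of all genes rose and 1.57% fell. Eif2ak2 encodes PKR, the eIF2 kinase activated by double-stranded RNA and induced by interferon, and it rose from 10.6 ± 2.34 to 37 ± 5.02 CPM (log2 fold change 1.80, SE 0.25, adjusted p = 0.00514). Eif2s2, the beta subunit of eIF2, rose from 34 ± 3.11 to 72.3 ± 2.97 CPM (1.09, adjusted p = 0.0105). The C/EBP factors that can pair with ATF4 rose as well, with Cebpb at 1.30 (adjusted p = 0.0277) and Cebpg at 0.84 (adjusted p = 0.0248). In CM plus DTM, Eif2ak2 was at 17.3 ± 4.08 CPM, with a log2 fold change of -1.09 against CM (adjusted p = 0.0611). The call of Eif2ak2 held in every alternative. That of Eif2s2 was lost without control 1 or 2 (adjusted p = 0.0602 and 0.0743) and under total count scaling (0.0529). That of Cebpb was lost without any 1 of the control or CM libraries (adjusted p from 0.0546 to 0.126), and that of Cebpg under total count scaling (0.0964) or without any 1 of control 1, 2 and 3, CM 2 and 3 and CM plus DTM 3 (from 0.052 to 0.102).

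With CM 1 and CM plus DTM 1 left out, 5 of these 20 genes rose in CM against control (9.62% of all genes), the 4 above and Impact, an inhibitor of the eIF2 kinase GCN2 (0.77, adjusted p = 0.0101). There 1 fell (6.41% of all genes), Mbtps1, which encodes the site-1 protease that cuts ATF6 (-0.51, adjusted p = 0.0344). That fit had 4 that fell and 0 that rose in CM plus DTM against CM (3.17% and 1.8% of all genes), Nfe2l1 (-1.32, adjusted p = 0.0222), Ern1, which encodes the sensor IRE1 (-0.87, adjusted p = 0.043), Eif2ak4, which encodes GCN2 (-0.68, adjusted p = 0.0475), and Cebpb (-0.58, adjusted p = 0.0464). Against control, Cebpb (0.75, adjusted p = 0.0108) and Eif2s2 (0.71, adjusted p = 0.0198) rose and 4 fell (4.07% and 4.32% of all genes), Nfe2l1 (-1.26, adjusted p = 0.00853), Ern1 (-0.69, adjusted p = 0.0475), Mbtps1 (-0.61, adjusted p = 0.03) and Eif2ak3, which encodes the eIF2 kinase PERK of the ER (-0.60, adjusted p = 0.0401). With all 9 libraries 0 of the 20 passed in either of these 2 comparisons.

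None of 11 amino acid transporters and none of 12 tRNA synthetases of the ATF4 programme passed the test in any of the 3 comparisons with all 9 libraries. When CM 1 and CM plus DTM 1 were left out, 1 transporter and 2 synthetases rose and 0 fell in CM against control, where 9.62% of all genes rose and 6.41% fell. These were the cystine transporter gene Slc7a11 (1.23, adjusted p = 0.0168), Sars (0.47, adjusted p = 0.0253) and Nars (0.39, adjusted p = 0.0381), and 0 passed in the other 2 comparisons. The most abundant transporter gene, Slc3a2, had log2 fold changes of 0.03 (CM to control), 0.22 (CM plus DTM to CM) and 0.25 (CM plus DTM to control). The most abundant synthetase gene, Nars, had 0.38, -0.21 and 0.17 in the same order with all libraries. In CM plus DTM against CM all 12 synthetases had a negative log2 fold change, with a median of -0.36 (-0.03 over all genes tested). Of them, 7 were lower in every CM plus DTM library than in every CM library, where 17.8% of all genes tested were. Without CM 1 and CM plus DTM 1 the median was -0.3 (-0.07 over all genes). Of 21 other ATF4 targets tested, 2 rose and 0 fell in CM against control (4.04% and 1.57% of all genes), Cebpb again and the stress factor gene Nupr1 (1.58, SE 0.31, adjusted p = 0.0215). The call of Nupr1 missed the threshold when any 1 of control 1, 2 and 3 and CM 2 and 3 was left out (adjusted p from 0.0562 to 0.108). The fit without CM 1 and CM plus DTM 1 had 6 that rose and 2 that fell, where 9.62% of all genes rose and 6.41% fell. Beside Cebpb and Nupr1 the risers were Ptgs2, which encodes the prostaglandin enzyme COX-2 (2.20, adjusted p = 0.000494), Stc2 (1.49, adjusted p = 0.0331), the growth factor gene Vegfa (1.14, adjusted p = 0.032) and Gpt2 (0.44, adjusted p = 0.047). The genes that fell were Mthfd1 (-0.62, adjusted p = 0.0179) and Pck2 (-0.57, adjusted p = 0.0306). The same fit had 3 that fell and 0 that rose in CM plus DTM against CM (3.17% and 1.8% of all genes). They were Ptgs2 (-1.44, adjusted p = 0.0256), Nupr1 (-1.44, adjusted p = 0.0256) and Cebpb. Against control 1 rose, Cebpb, and 0 fell (4.07% and 4.32% of all genes).

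Of 48 other genes of ER folding, translocation and degradation, 3 rose and 0 fell in CM against control, where 4.04% and 1.57% of all genes did. They were Ero1l, the oxidase that recharges the PDIs (1.17, SE 0.22, adjusted p = 0.0167), Sec63, a part of the ER import channel (1.02, SE 0.23, adjusted p = 0.0385), and Wfs1, an ER membrane protein that restrains ATF6 (0.91, SE 0.20, adjusted p = 0.0332). The median log2 fold change of these 48 genes was 0.15, against -0.01 over all genes tested. The call of Ero1l missed the threshold when any 1 of control 1, 2 and 3 and CM 2 was left out (adjusted p from 0.0539 to 0.0849). That of Sec63 was lost without any 1 library other than CM plus DTM 1 (from 0.0587 to 0.133), that of Wfs1 without any 1 of control 1, 2 and 3, CM 2 and 3 and CM plus DTM 3 (from 0.058 to 0.154), and both under total count scaling (0.128 and 0.117) and without a count filter (0.054 and 0.0567). When CM 1 and CM plus DTM 1 were left out, 5 of the 48 rose and 0 fell, where 9.62% of all genes rose and 6.41% fell. The 5 were Ero1l, Sec63 and Wfs1 with Fkbp11 (0.80, adjusted p = 0.0465) and Hspa13 (0.58, adjusted p = 0.0248). Of the 48, 1 then fell and 0 rose in CM plus DTM against CM (3.17% and 1.8% of all genes), Ero1l (-0.69, adjusted p = 0.0466).

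In CM plus DTM against control, 1 of the 48 fell, Uggt1, which checks the folding of glycoproteins (-0.81, SE 0.17, adjusted p = 0.0455), and 0 rose, where 0.946% of all genes fell and 1.5% rose. Its call was lost without any 1 of control 1, 2 and 3, CM 2 and 3 and CM plus DTM 1 and 3 (adjusted p from 0.0659 to 0.161), without a count filter (0.0715) and with the compared groups only (0.0907). It held without both CM 1 and CM plus DTM 1, where Uggt1 fell (-0.71, adjusted p = 0.0257), and Fkbp11 (1.08, adjusted p = 0.0267) and Ssr2 (0.45, adjusted p = 0.0408) rose. In that fit 4.32% of all genes fell and 4.07% rose.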

How the data were processed

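Per the labels, 9 mRNA libraries were read on a DNBSEQ-T7, and the authors deposited raw counts of reads per gene symbol. Trimmomatic 0.36, FastQC 0.11.2, HISAT2 2.1.0, DESeq2 1.12.4 and the builds GRCh38 (human) and mm39 are listed, with no role, per the submitters' processing notes. The counter, the annotation and whether strand was used are not given in the sources used here. Overlapping genes are therefore uncertain.

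Counts were filtered with filterByExpr (15429 genes left), scaled by TMM and tested with edgeR 4.0.16 under R 4.3.3 (glmQLFTest after glmQLFit by its default). The fit took the 3 groups of all 9 libraries together, and p-values were adjusted by Benjamini-Hochberg, with a threshold of 0.05. The SE is the size of the log2 fold change divided by the square root of F. Members and lists were chosen with earlier results of these data known. Any member may be named, and of each other list up to 4 called genes (mean of 1 CPM or more, largest fold changes), or, with none called, the 2 most abundant, as values. Within groups, libraries differed by a chi-square per degree of freedom of at least 26.57, so none was a copy of another. Alternatives were DESeq2 1.42.0, limma-voom (limma 3.58.1), other edgeR options, scaling and filters, fits of the compared groups, a replicate block and libraries left out. CM 1 and CM plus DTM 1 were left out together because earlier results showed them apart. ER retention tails of the proteins were not analysed here.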

Additional observations from a re-analysis of the deposited data

How the results depend on the processing

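Of 6 member calls, that of Atf5 in CM against control held in all 19 alternatives and 5 were lost in some, and of 99 uncalled member results 21 passed and 34 changed sign in some. Values follow in the order CM against control, then CM plus DTM against CM, then CM plus DTM against control. Total genes called were 865, 0 and 378. They were 1937, 2827 and 1980 with DESeq2, 1360, 1 and 118 with the compared groups only, and 2503, 776 and 1311 without CM 1 and CM plus DTM 1. In CM plus DTM against CM they were 6 with legacy = FALSE and 1 with total count scaling. Leaving out each library in turn gave 256 to 1884, 0 to 1876 and 15 to 1766. Members called in the ATF4 arm were then 1 to 3 (2 with all libraries), 0 to 1 (0) and 0 to 2 (1), and in the ER arm 0 to 3 (2), 0 to 2 (0) and 0 to 5 (1). The 5 were called without CM plus DTM 2, the fit in which 1766 of all genes were called, and Hyou1 and Sel1l among them fell. Without CM 1 and CM plus DTM 1 the ATF4 arm had 4, 3 and 2 and, in the last 2 comparisons, the ER arm had 1 and 3. DESeq2 gave 4 and 2 in the ATF4 arm and 3 and 3 in the ER arm for those 2 comparisons. In CM against control, limma-voom gave 1 in the ATF4 arm and total count scaling 1 in the ER arm. In CM plus DTM against control, the ATF4 arm had 0 under total count scaling, without a count filter and with the compared groups only, and the ER arm had 2 with a filter of 1 CPM. Deviations of same-numbered libraries correlated from -0.044 to 0.297, and those of differently numbered libraries from -0.268 to 0.219. Between CM and CM plus DTM the same-numbered values were 0.127, 0.142 and 0.0965, and the others ran from -0.144 to 0.0759. Whether library numbers stand for pairs was not tested, and the main fit used no pairing. With the replicate block, CM plus DTM against control gave 149 genes and 0 members of each arm, and CM against control gave 1 member of the ER arm. The block also ended the calls of Cebpg (adjusted p = 0.0557), Wfs1 (0.0549) and Uggt1 (0.076). The cause of these differences was not tested. The effect of depth was not tested.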
